A study of Mus musculus with 36 samples.

Results

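The mitochondrial ribosomal protein genes were taken as every row of the count table whose gene name begins with Mrpl or Mrps followed by a digit, which gave 78 of 16614 rows. By known position of the protein, 51 belong to the large subunit (the Mrpl genes with Mrps18a and Mrps30), 26 to the small subunit, and Mrps36, despite its name, to the oxoglutarate dehydrogenase complex. Forms of 46 of the ribosomal members exist in bacterial ribosomes (30 large, 16 small), and 31 are known only from mitochondrial ribosomes (21 large, 10 small). The study asked whether loss of the RNA-binding protein FMRP changes where neuronal ribosomes stall. Ribosome-protected fragments (RPFs, the stretches of mRNA that a ribosome shields from nuclease) were sequenced from 2 places in sucrose gradients of whole brain homogenate: the pellet and fraction 5/6, labelled granule and polysome. The paper found ribosome clusters in both by electron microscopy. Pelleted ribosomes have been proposed to be those of neuronal RNA granules, but the paper calls it unclear whether only these are in the pellet. Ribophorin, a marker of rough endoplasmic reticulum, was seen in the pellet and not in fraction 5/6. RNA of the homogenate was sequenced as well. C57BL/6 mice (WT) and FMR1 knockout mice (FMR1 KO) were compared, each library was made from a pool of 10 brains of postnatal day 5, and all cell types of the brain are therefore mixed in every value. A standard nuclease preparation (10 mM MgCl2, strong nuclease at room temperature) and a low nuclease preparation (2.5 mM MgCl2, nuclease in the cold) were made. After digestion, single ribosomes were spun down in the standard preparation and taken from a further sucrose gradient in the low nuclease one. Magnesium, nuclease and this step changed together and cannot be told apart. Each of the 12 combinations of genotype, material and preparation held 3 libraries. The 3 RPF replicates of a group carried linkers of their own and were pooled before reverse transcription, so they shared the later steps of library making, and p-values measure the spread between these libraries. In whole brain, fewer cells of a type and less RNA per cell cannot be told apart.

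Mitochondria carry ribosomes of their own, which translate the few mRNAs of the mitochondrial genome into subunits of the respiratory chain. The ribosomal RNAs of these particles come from mitochondrial DNA, but every one of their proteins is encoded in the nucleus, translated by cytosolic ribosomes and imported. The RPFs of the mitoribosomal genes therefore report on cytosolic ribosomes that make parts of mitochondrial ribosomes, and the coding sequences of these genes are short. In neurons the mRNAs of nuclear-encoded mitochondrial proteins are among those translated away from the cell body.

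Total counts ranged from 6765065 to 40174168 in the standard RPF libraries and from 112249206 to 147216378 in the matching RNA libraries. The low nuclease preparation gave 23634940 to 62310787 counts in RPF libraries and 41586791 to 141505786 in RNA. A single gene, Cdk8, held 36.7–63.4% of the counts of standard RPF libraries and 2.69–5.62% of low nuclease ones, so levels are given as CPM, counts scaled to the library total, with Cdk8 left out of the total. The 78 members together gave 9028 to 31036 counts in a standard RPF library. In the standard RNA libraries neuronal markers lay between 103 and 2626 CPM, the liver gene Apoa1 between 0.44 and 0.89 CPM, the muscle genes Ckm and Acta1 between 0.54 and 0.82 CPM and between 8.94 and 11.8 CPM, and the haemoglobin genes Hba-a1 and Hbb-bs of blood between 55.2 and 135 CPM and between 119 and 283 CPM. Acta1 reached 314 CPM in a standard WT pellet and 124 CPM in a FMR1 KO pellet. Fmr1 lay at 64.6–67.8 CPM in WT pellets and at 4.79–4.93 CPM in FMR1 KO pellets of the standard preparation. In fraction 5/6 the library labelled WT replicate 3 held Fmr1 at 3.17 CPM, below each FMR1 KO library of that fraction (5.98–10.7 CPM), which goes against its label, and the main counts and ratios that use it are also given without it. In 3 low nuclease RNA libraries (WT replicate 2, FMR1 KO replicates 2 and 3) 10 genes held 82.4–85.0% of all counts.

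Libraries stood apart from others of their group for 3 members in RPFs. Mrps17, a small subunit protein with a bacterial form, held 65800 counts (1545 CPM) in low nuclease WT pellet replicate 2 against 20.7 and 25.1 CPM in the other 2 libraries of that group, and 186 CPM in low nuclease FMR1 KO pellet replicate 3. Mrps24, the mitochondrial form of the small subunit protein S3, reached 299 CPM (4975 counts) in standard WT fraction 5/6 replicate 1 against 4.09 and 5.04 CPM in replicates 2 and 3. Mrpl12, the protein of the large subunit stalk that binds translation factors, reached 90.6 CPM (1136 counts) in standard FMR1 KO pellet replicate 2 against 11.3 and 11.9 CPM. It was as high in standard WT fraction 5/6 replicates 2 and 3 (98.7 and 92.1 CPM, against 14.02 CPM in replicate 1). A library more than 4 times above both others of its group, with at least 100 counts, was found for 0.275–2.94% of the coding genes with that many counts in a standard RPF library and for 0.461–1.26% of those in a low nuclease RPF library. What put these counts there was not tested.

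The members' coding sequences ran from 195 to 1326 nt with a median of 582 nt, against 1350 nt over all coding genes, and the coding sequence made up a median of 48.8% of the transcript. Nuclear genes for mitochondrial ribosomal proteins often have processed pseudogenes, so each coding sequence was cut into overlapping 30 nt windows, about the length of an RPF, and each window was looked up in the rest of the genome. For 45 members no window had an identical copy elsewhere, for 54 fewer than 10% of windows had one, and for 12 more than 50% did. How reads with several matching places were counted is not given in the sources used here, so the values of highly copied members are uncertain. Mrps36 on chr13:100736259-100744568 (GRCm38, minus strand, spliced coding sequence of 300 nt) is the most copied of the members described below, and its sequence is shown because only the 57 bases in capitals lie in windows without a copy (28 of 271 windows).
Mrps36: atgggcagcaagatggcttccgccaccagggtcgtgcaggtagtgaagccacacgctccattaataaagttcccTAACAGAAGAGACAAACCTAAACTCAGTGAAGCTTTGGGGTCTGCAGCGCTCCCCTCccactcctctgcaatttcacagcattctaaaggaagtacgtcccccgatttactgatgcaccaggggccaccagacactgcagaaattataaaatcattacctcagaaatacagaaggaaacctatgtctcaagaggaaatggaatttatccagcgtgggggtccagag

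Together the members took a larger share of the counts in RNA than in RPFs of the standard preparation. In RNA their share of the counts without Cdk8 was 0.289%, 0.269% and 0.264% in WT and 0.266%, 0.274% and 0.261% in FMR1 KO. In pellets it was 0.108%, 0.139% and 0.0909% in WT and 0.111%, 0.0940% and 0.120% in FMR1 KO. In fraction 5/6 it was 0.187%, 0.102% and 0.122% in WT and 0.134%, 0.135% and 0.231% in FMR1 KO. Every pellet library and every fraction 5/6 library of the standard preparation lay below every RNA library, and the WT and FMR1 KO libraries of each material overlapped. The share in the low nuclease preparation was 0.161%, 0.280% and 0.140% in WT pellets, 0.121%, 0.131% and 0.164% in FMR1 KO pellets, 0.196%, 0.183% and 0.198% in WT fraction 5/6, and 0.219%, 0.208% and 0.206% in FMR1 KO fraction 5/6. The 0.280% is the WT pellet library in which Mrps17 stood apart. Low nuclease RNA gave 0.183%, 0.0184% and 0.149% in WT and 0.174%, 0.0135% and 0.0133% in FMR1 KO, the 3 low values being the libraries dominated by 10 genes. In the typical member, a median of 13.9 ± 3.43 CPM was found in WT pellets (SD, n = 3), 12.7 ± 2.33 CPM in FMR1 KO pellets, 14.9 ± 4.63 CPM in WT fraction 5/6, 19.4 ± 6.85 CPM in FMR1 KO fraction 5/6, and 31.6 ± 2.62 and 30.9 ± 0.937 CPM in WT and FMR1 KO RNA. The median coding gene also had a lower CPM in RPFs than in RNA, at 6.70 CPM in WT pellets and 19.002 CPM in WT RNA, and at 6.85 and 18.6 CPM in FMR1 KO.

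**Figure D1:**
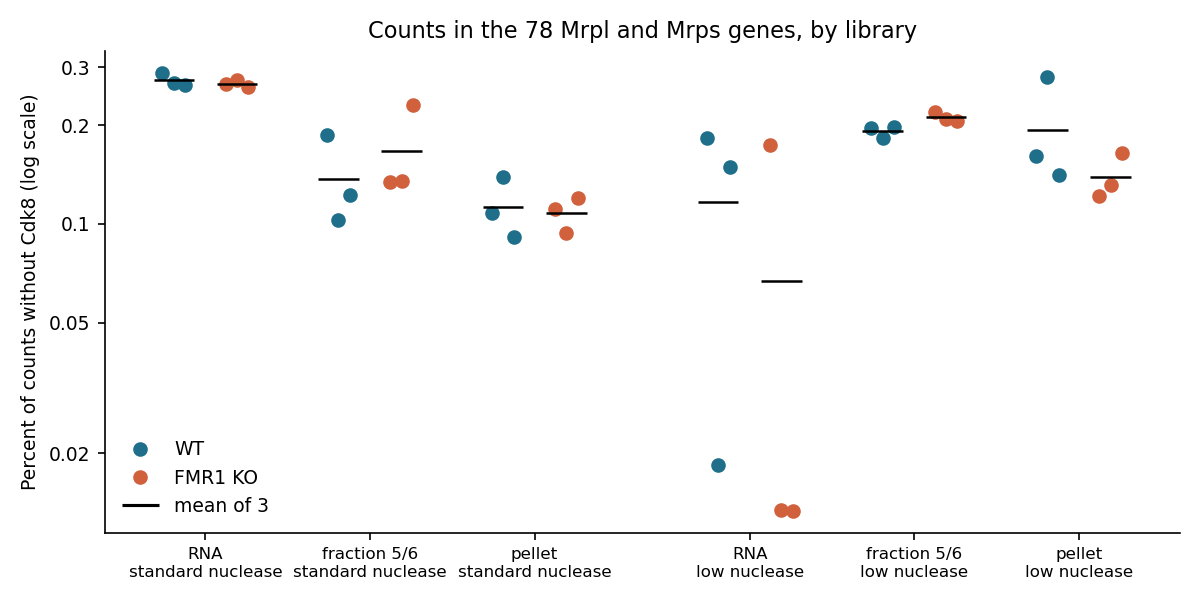
Share of the counts without Cdk8 that fell on the 78 members, in percent on a log axis, for each of 36 libraries (points), with the mean of 3 libraries as a bar. The standard RNA libraries sit between 0.261% and 0.289%, above all standard RPF libraries, and 3 low nuclease RNA libraries sit at or below 0.0184%.

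Per kilobase of coding sequence, the standard WT pellet levels of the members ran from Mrps36 at the bottom to Mrpl48 at the top. The 5 highest were Mrpl48 (74.9 ± 13.8 CPM per coding kb, SD, n = 3), Mrps6 (65.3 ± 8.16), Mrps17 (51.9 ± 13.7), Mrpl16 (48.6 ± 7.77) and Mrpl24 (37.5 ± 7.10). In FMR1 KO pellets the same 5 genes lay at 62.7 ± 10.6, 72.9 ± 9.42, 42.7 ± 7.60, 42.9 ± 7.85 and 36.4 ± 7.46 CPM per coding kb. In WT the neighbours in this order overlapped within their SDs, and in FMR1 KO pellets Mrps6 came before Mrpl48. Mrpl48, Mrps6 and Mrpl24 share exonic bases with other genes: 708 of 8152 nt of Mrpl48 with Rab6a and 594 of 2255 nt of Mrpl24 with Rrnad1, both on the opposite strand, and 305 and 159 of 1533 nt of Mrps6 with Gm49711 and Slc5a3 on the same strand. Of the coding windows of Mrpl48 57.6% have a copy elsewhere. The counts of these 3 genes are uncertain. The 5 lowest were Mrps36 (0.391 ± 0.341 CPM per coding kb), Mrpl23 (2.60 ± 1.33), Mrps10 (6.32 ± 1.54), Mrpl54 (7.20 ± 1.88) and Mrps18b (7.39 ± 2.91), and in FMR1 KO pellets they lay at 0.732 ± 0.175, 2.77 ± 0.702, 6.47 ± 0.352, 9.01 ± 1.74 and 7.02 ± 1.01. Mrps36 was read only 4, 2 and 0 times in the 3 WT pellets and 4, 3 and 2 times in the 3 FMR1 KO pellets, against 1458 to 1940 counts in each standard RNA library.

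Occupancy, the level of pellet RPFs against the level of RNA, asks which mRNAs carry more or fewer pelleted ribosomes than their abundance would give. In WT it divided the mitoribosomal genes by size: long members such as Mrps22 and Mrps31 were higher in pellet RPFs than in RNA, and short members such as Mrps21 were lower. With edgeR's quasi-likelihood test, 21 of 78 members were higher and 31 lower at an adjusted p under 0.05, where 31.2% of all 16146 coding genes tested were higher and 34.3% lower. The members' median log2 ratio was −0.14, beside −0.11 over all genes tested. In FMR1 KO 20 members were higher and 36 lower (31.9% and 35.2% of all genes), with a median of −0.24 beside −0.07. Of the members 26.9% were thus higher and 39.7% lower in WT, and 25.6% and 46.2% in FMR1 KO. These ratios are relative to the scaling. With library sizes alone, which include Cdk8, the median of all genes moved to −2.13 in WT, and 0 members were higher and 75 lower. In FMR1 KO the median of all genes moved to −2.33, again with 0 members higher and 75 lower.

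Among the members above RNA in WT, the 5 with the highest ratios were Mrps22, Mrpl16, Mrps31, Mrps27 and Mrps9. Values per library are CPM with the total scaled by the trimmed mean of M-values (TMM) over the libraries compared (scaled CPM), so they differ in scale from one comparison to the next. Mrps22, a small subunit protein known only from mitochondria, lay at 38.4, 34.7 and 31.6 scaled CPM in WT pellets and at 8.90, 9.54 and 8.69 in WT RNA, 3.86-fold higher (log2 1.95 ± 0.12, SE; adjusted p = 1.06e-05, edgeR). Mrpl16, which lines the site where tRNAs are bound on the large subunit, lay at 36.8, 43.7 and 40.1 in pellets and 11.7, 12.3 and 10.95 in RNA, 3.45-fold higher. Mrps31, another mitochondrial-only protein of the small subunit, lay at 24.9, 25.5 and 21.6 against 8.25, 7.96 and 6.99, 3.11-fold higher. For these 3 genes each pellet library exceeded each RNA library by more than the whole range within either group. Mrps27, a pentatricopeptide repeat protein of the small subunit, lay at 35.6, 38.2 and 35.3 in pellets and 12.2, 14.1 and 13.4 in RNA (2.74-fold higher), and Mrps9, which has a bacterial form, at 22.4, 22.9 and 20.3 against 9.59, 8.81 and 8.83 (2.41-fold higher). In FMR1 KO the log2 ratios of these 5 genes were 1.81, 1.49, 1.80, 1.21 and 1.18, all called higher. With library sizes alone, which include Cdk8, these 5 WT ratios lay below 0. In CPM without Cdk8, Mrpl16 lay at 32.7, 43.3 and 33.8 in WT pellets and at 23.4, 24.3 and 22.7 in WT RNA.

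At the other end stood Mrps36, Mrpl23, Mrps24, Mrps21 and Mrpl30. Mrps36 lay at 0.212, 0.165 and 0 scaled CPM in WT pellets and at 7.43, 6.17 and 5.72 in WT RNA, a fitted 44.5-fold lower ratio that rests on 0 to 4 counts in a pellet library (log2 −5.47 ± 0.43; adjusted p = 3.13e-05, edgeR). Mrpl23, which sits beside the exit of the peptide tunnel, lay at 1.48, 2.06 and 0.796 in pellets and 13.6, 11.5 and 9.10 in RNA, 7.75-fold lower (log2 −2.95 ± 0.31). Both are heavily copied, with 89.7% and 80.5% of coding windows found elsewhere, and so in part are Mrps21 (44.4%) and Mrpl30 (43.0%). Mrps24, with no copied window, lay at 5.45, 6.34 and 3.98 against 38.4, 35.1 and 32.2, 6.66-fold lower, and 226 of its 1466 exonic nt lie also in Urgcp on the same strand. Mrps21, the mitochondrial form of the small subunit protein S21, lay at 3.44, 5.11 and 2.39 against 20.0, 13.7 and 12.9 (4.24-fold lower), and Mrpl30, a large subunit protein with a bacterial form, at 6.35, 9.56 and 5.67 against 37.2, 25.4 and 24.4 (4.04-fold lower). No pellet library of these 5 genes reached its lowest RNA library. Their log2 ratios in FMR1 KO were −4.85, −2.68, −2.56, −2.12 and −2.10, all called lower.

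The relation to coding length ran through the whole family. Of 23 members under 450 nt, 0 were higher and 16 lower in WT, with a median log2 ratio of −1.08 (8% and 65.7% of all genes of these lengths). Of 27 members of 450 to under 700 nt, 4 were higher and 13 lower (median −0.35; 13.1% and 54.02% of all genes of these lengths). Of 28 members of 700 nt or more, 17 were higher and 2 lower (median 0.49; 26.2% and 38.4% of all genes of 700 to 1326 nt). Over all genes within the members' lengths of 195 to 1326 nt the class medians were −1.37, −0.84 and −0.30, in the same order as the members' medians and below them in each class. Across members the ratio followed log2 coding length with a Spearman rho of 0.69 in WT (n = 78, Pearson r 0.64) and 0.68 in FMR1 KO, and 0.73 in the 54 WT members under 10% copied, beside 0.37 over all 15953 genes. All of these points share the same 6 libraries, and RPFs and RNA reads are counted over transcripts of different make-up. The copied members were lower: 2 of 24 members at or above 10% copied windows were higher and 14 lower (median −0.996), against 19 and 17 of the other 54 (median 0.01). Copies and short length go together here and their parts were not separated.

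**Figure D2:**
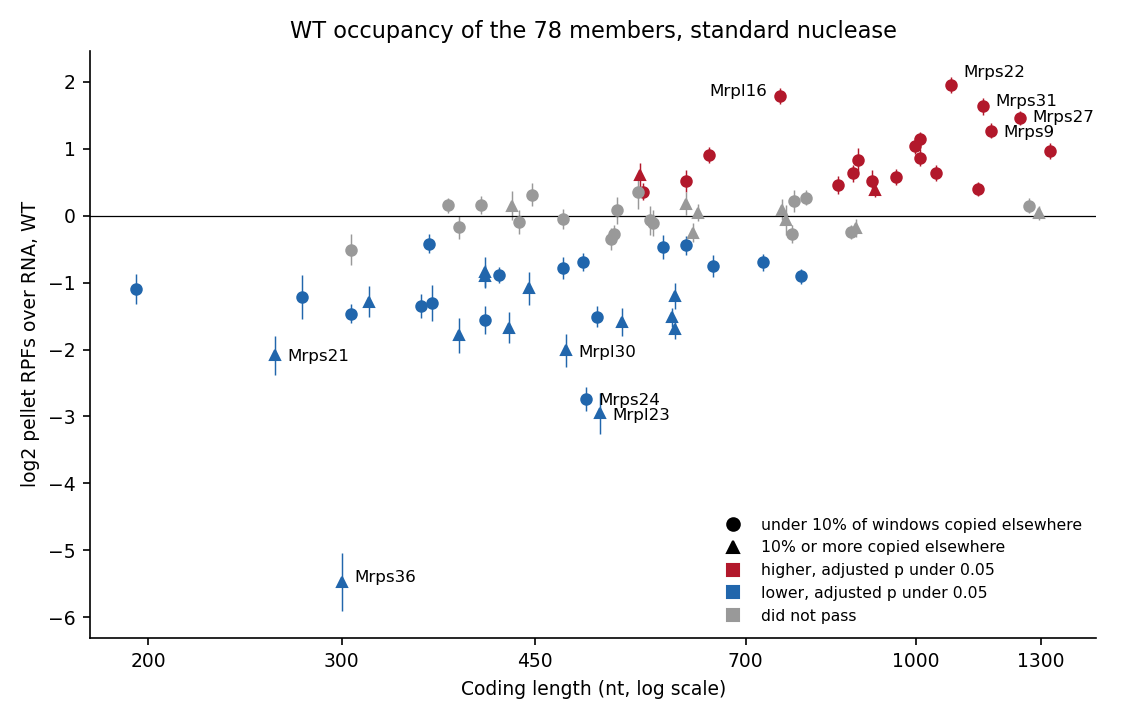
Log2 ratio of standard WT pellet RPFs to WT RNA (points, with the standard error as bars) against coding length in nt on a log axis for 78 members, triangles marking those with 10% or more copied windows and colours marking members called higher, lower or not called. Members of 700 nt or more lie mostly above 0 (17 called higher, 2 lower) and none of the 23 members under 450 nt was called higher.

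Both subunits held higher and lower members. Of 51 large subunit members 16 were higher and 19 lower in WT (median −0.09), and of 26 small subunit members 5 were higher and 11 lower (median −0.21). Members with a bacterial form gave 10 higher and 15 lower of 46, and those known only from mitochondria 11 and 15 of 31. The difference between these groups was not tested. The 5 further proteins of the mitochondrial ribosome that carry other names differed from gene to gene: Ptcd3 (log2 2.03 ± 0.12, adjusted p = 9.44e-06, edgeR) and Dap3, a GTP-binding protein of the small subunit (1.35 ± 0.11, adjusted p = 3.49e-05), were higher, while Aurkaip1 (0.19 ± 0.19), Gadd45gip1 (−0.04 ± 0.14) and Chchd1 (−0.44 ± 0.17) did not pass the test. In FMR1 KO Ptcd3 (1.87 ± 0.12) and Dap3 (1.16 ± 0.09) were again higher and Chchd1 (−0.69 ± 0.12, adjusted p = 0.00196, edgeR) lower.

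Other gene lists of mitochondrial translation had higher median occupancy than the mitoribosomal proteins. In WT, 9 of 15 translation factors and related proteins were higher and 4 lower (median log2 0.73), with Lrpprc, which stabilises mitochondrial mRNAs, at 2.95 ± 0.17 and the elongation factor Gfm1 at 1.70 ± 0.10. Of 22 assembly factors of the mitochondrial ribosome 12 were higher and 5 lower (median 0.50), and of 17 mitochondrial tRNA synthetases 11 were higher and 1 lower (median 0.64). By contrast 1 of 82 cytosolic ribosomal proteins was higher and 77 were lower (median −2.54), and of 84 nuclear-encoded respiratory chain genes 26 were higher and 36 lower (median −0.29). Coding genes in the members' range of lengths had a median of −0.60, with 20.4% higher and 46.2% lower. The median of the mitoribosomal proteins thus lay between that of the cytosolic ribosomal proteins and those of the other lists of mitochondrial translation. The lists were not matched for coding length or copied windows, and no difference between them was tested.

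Fraction 5/6 RPFs were set against the same RNA libraries, so these ratios and occupancy are not independent. In WT 18 members were higher and 26 lower (24.7% and 31.3% of all genes tested), with a median log2 ratio of 0.09 beside −0.14 over all genes, and in FMR1 KO 34 were higher and 26 lower (29.8% and 33.1%), with 0.23 beside −0.11. Without the library labelled WT replicate 3 the WT counts were 31 higher and 24 lower. The shares over all genes in that fit are not given here, so this change is not read as one of the members. Mrps22 lay at a log2 ratio of 2.05 in WT and 2.28 in FMR1 KO, Mrpl16 at 1.67 and 1.71, and Mrps36 at −4.11 and −3.74. Without WT replicate 3 the WT ratios of these 3 were 2.31, 1.79 and −4.64. With library sizes alone 0 members were higher and 74 lower in WT, and 0 and 63 in FMR1 KO.

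In the low nuclease preparation more members were higher than lower against RNA. In WT 25 were higher and 8 lower in the pellet (24.9% and 27.6% of all genes), with a median log2 ratio of 0.26 beside −0.09, and in FMR1 KO 17 were higher and 4 lower (16% and 12.8%), with 0.44 beside −0.04. These values lean on RNA libraries dominated by 10 genes: without WT RNA replicate 2 the counts were 27 and 14 (median 0.33), and without FMR1 KO RNA replicates 2 and 3, which leaves 1 RNA library assumed to vary like the pellets, 18 and 13 (median 0.03). With library sizes alone they were 1 and 0 in WT and 0 and 0 in FMR1 KO. For these alternatives, and for those of fraction 5/6 below, the shares over all genes are not given here. Mrps22 was 5.01-fold higher in WT (25.96, 27.6 and 23.7 scaled CPM in pellets, 4.55, 6.79 and 4.40 in RNA; log2 2.32 ± 0.22, adjusted p = 0.000301, edgeR) and 5.08-fold higher in FMR1 KO. Mrps31 was 3.46-fold and 4.58-fold higher, with no overlap between pellet and RNA libraries. Mrps36 stayed the lower extreme at log2 ratios of −2.31 in WT and −3.20 in FMR1 KO, both called. Mrpl30, called lower in the standard preparation, gave 0.16 ± 0.42 and 0.09 ± 0.35, neither called. Spearman's rho with coding length was 0.50 in WT and 0.51 in FMR1 KO. Fraction 5/6 against the same RNA gave 39 higher and 4 lower in WT (28.1% and 29.1% of all genes; median 0.73 beside −0.02) and 32 and 1 in FMR1 KO (17.3% and 17%; 1.01 beside 0.00). Without the same dominated RNA libraries these were 41 and 4 (median 0.61) and 41 and 7 (0.59), and with library sizes alone 0 members were called in either genotype.

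Enrichment, the pellet against fraction 5/6, compares ribosomes that pellet with those of fraction 5/6, and both materials held ribosome clusters in the paper. In the standard preparation the pellet values of most members lay below those of fraction 5/6 under TMM scaling. In WT 60 of 77 members tested were below 0 (median log2 ratio −0.15, beside −0.01 over all genes), and 0 members were called in either direction by edgeR's quasi-likelihood test, beside 0.023% of 13069 genes, while 5 had an unadjusted p under 0.05 (6.13% of all genes) and DESeq2 called 1. Mrps36 was left out by the filter on low counts. In FMR1 KO 72 of 77 were below 0 (median −0.36 beside −0.04), 0 were called higher and 7 lower, where 9.11% of 13241 genes were called higher and 2.4% lower, and for 36 members all 3 pellet libraries lay below all 3 fraction 5/6 libraries, against 18.3% of all genes. The WT comparison changed with the library labelled WT fraction 5/6 replicate 3: without it the median was −0.24 with 60 members below 0 and 0 called, while 1029 genes in all were called higher and 246 lower. The direction in WT also hung on other libraries: 41 members were below 0 without WT pellet replicate 3 (median −0.03), 45 without fraction 5/6 replicate 1 (−0.06), and 55 to 65 in the other fits that left out 1 library. Scaled by library sizes alone, 34 WT members were below 0 and the median was 0.02, beside 0.14 over all genes. Whether the genotypes differed in enrichment was tested directly and is given with the genotype comparisons.

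The largest of the 7 was Mrpl33, the smallest member at 195 nt and a large subunit protein with a bacterial form, at 3.71, 3.26 and 2.62 scaled CPM in FMR1 KO pellets and 6.48, 6.66 and 6.45 in fraction 5/6, 2.04-fold lower (log2 −1.03 ± 0.17, adjusted p = 0.0137, edgeR). Mrpl50, a mitochondrial-only large subunit protein, lay at 8.96, 8.97 and 8.11 against 14.4, 12.1 and 12.8 (−0.60 ± 0.11, adjusted p = 0.0234). Mrps35, a mitochondrial-only small subunit protein, lay at 7.89, 7.37 and 7.96 against 11.9, 10.5 and 11.99 (−0.56 ± 0.11, adjusted p = 0.0248). The pellet and fraction 5/6 libraries of these genes did not overlap in FMR1 KO, and in WT, with log2 ratios of −0.54, −0.32 and −0.17, they overlapped only through fraction 5/6 replicate 3, the library that goes against its label. Without it the WT ratios were −0.87, −0.52 and −0.25, not called. Mrpl24 (−0.54), Mrpl40 (−0.51), Mrpl11, a protein of the stalk base (−0.47), and Mrps22 (−0.36) completed the 7, and all 4 were below 0 in WT. The WT libraries of Mrpl24 and Mrps22 likewise overlapped only through replicate 3 (−0.32 and −0.31 without it), while those of Mrpl40 and Mrpl11 overlapped also without it (−0.18 and −0.32). None of the 7 has 10% or more of its windows copied. The calls were few and hung on single libraries: without FMR1 KO pellet replicates 1, 2 and 3 they numbered 1, 4 and 1, and without fraction 5/6 replicates 1, 2 and 3 they numbered 0, 6 and 2. In the same 6 fits 67 to 73 members stayed below 0, and a fit blocked on replicate number kept 1 call. Mrpl40 and Mrps22 also lost the call with DESeq2, without Cdk8, with no filter and with all groups in one fit, and Mrpl11 with DESeq2 and with all groups in one fit. Scaled by library sizes alone, none of the 7 was called, at log2 ratios of −1.63 to −0.95 with SEs of 0.58 to 0.63, beside a median of −0.60 over all genes.

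The widest WT values were those of members with a library apart. Mrps24 gave a log2 ratio of −4.21 in WT, with 130 scaled CPM in fraction 5/6 replicate 1, with 2.75 and 2.37 in the others and 2.50, 2.93 and 1.85 in pellets. Mrpl12 gave −2.76, with 6.08, 66.3 and 43.2 in fraction 5/6 and 6.00, 6.29 and 4.67 in pellets. Neither was called, and without fraction 5/6 replicate 3 they gave −4.77 and −2.66. Mrpl1, which forms the mobile stalk near the tRNA exit site, was the only member whose 3 WT pellets (8.54, 9.26 and 7.999) lay above all 3 fraction 5/6 libraries (6.86, 6.71 and 7.21; 5.65% of all genes), which without fraction 5/6 replicate 3 held for Mrps27 as well. The log2 ratio of Mrpl1 was 0.31 ± 0.13 with an adjusted p of 0.643 by edgeR, and 0.34 (adjusted p = 0.144) without replicate 3.

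**Figure D3:**
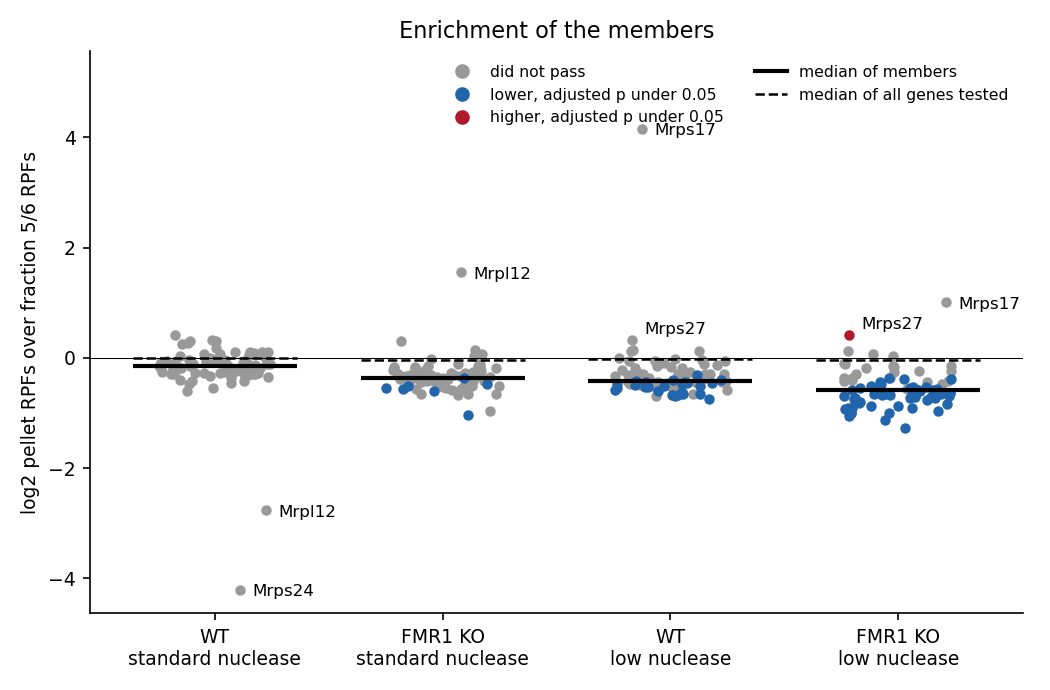
Log2 ratio of pellet to fraction 5/6 RPFs for each member (points) in WT and FMR1 KO of the standard and low nuclease preparations, with the median of the members as a solid line and the median of all genes tested as a dashed line. The members' medians lie at −0.15, −0.36, −0.42 and −0.58, each below the median of all genes.

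With low nuclease the same direction held with more calls in both genotypes. In WT 0 members were called higher and 25 lower (14.3% and 8.59% of 15570 genes), 73 of 78 were below 0, and the median log2 ratio was −0.42 beside −0.02. For 52 members the pellet libraries lay below all fraction 5/6 libraries, against 23.3% of all genes. In FMR1 KO 1 was higher and 52 lower (8.82% and 11.8% of 15562 genes), 73 were below 0, the median was −0.58 beside −0.04, and for 67 members the pellet libraries lay below all fraction 5/6 libraries, against 26.4% of all genes. The number called depended on every library: without WT pellet replicates 1, 2 and 3 it was 3, 4 and 1, without WT fraction 5/6 replicates 4, 11 and 12, without FMR1 KO pellet replicates 31, 8 and 46, and without FMR1 KO fraction 5/6 replicates 1, 5 and 0. The direction moved little, since 70 to 73 members in WT and 72 to 76 in FMR1 KO were below 0 under all alternatives. Blocked on replicate number, 42 WT members were called, 1 higher and 41 lower, and with all 6 groups of the preparation in one fit 2 in WT and 6 in FMR1 KO. For these fits and those without 1 library the shares over all genes are not given here.

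The 3 lowest FMR1 KO ratios belonged to very short members. Mrps33, a mitochondrial-only protein of the small subunit, lay at 1.59, 1.89 and 2.00 scaled CPM in pellets and 4.18, 4.17 and 4.86 in fraction 5/6 (2.40-fold lower, log2 −1.27 ± 0.16, adjusted p = 0.0133, edgeR). Mrpl34, a large subunit protein with a bacterial form, lay at 6.72, 7.19 and 9.19 against 17.7, 16.5 and 16.1 (2.17-fold lower). Mrpl36, the mitochondrial form of another small bacterial protein, lay at 5.34, 5.75 and 6.15 against 12.9, 10.6 and 11.1 (2.01-fold lower). In WT these 3 had log2 ratios of −0.47, −0.51 and −0.50, with overlapping libraries and no call. Among the lowest called WT ratios were Mrpl14 (13.8, 10.8 and 11.03 against 19.9, 23.8 and 15.9; −0.74 ± 0.18, adjusted p = 0.0353) and Mrps31 (19.03, 21.1 and 18.3 against 31.6, 30.2 and 30.8; −0.67 ± 0.09, adjusted p = 0.00963). Both were also called lower in FMR1 KO, at −0.96 and −0.39. Mrps17 gave 4.15 ± 1.75 in WT, not called, from the single library at 1626 scaled CPM.

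Among the members above 0 was Mrps27. It lay at 39.5, 33.9 and 34.7 scaled CPM in low nuclease FMR1 KO pellets against 27.6, 26.4 and 27.5 in fraction 5/6 (log2 0.41 ± 0.09, adjusted p = 0.0339, edgeR), and was the one member called higher. In WT it lay at 32.7, 37.1 and 35.0007 against 27.5, 29.7 and 26.4 (0.33 ± 0.09, adjusted p = 0.0504, but called with DESeq2, the stricter filter and the replicate block at adjusted p = 0.0328, 0.0499 and 0.0377), and in the standard preparation at 0.25 in WT (0.39 without fraction 5/6 replicate 3) and 0.31 in FMR1 KO, not called. All 4 log2 ratios were above 0. Mrps27 was not alone there: 17 members were above 0 in standard WT, and 5 each in standard FMR1 KO, low nuclease WT and low nuclease FMR1 KO. Ptcd3, which is also a pentatricopeptide repeat protein of the small subunit, was called higher in low nuclease FMR1 KO as well (0.56 ± 0.13, adjusted p = 0.0344, edgeR), while Chchd1, Gadd45gip1 and Aurkaip1 were called lower there (−0.92, −0.62 and −0.64). The call for Mrps27 was lost when any of the 6 libraries was left out, with log2 ratios of 0.34 to 0.45. It was also lost with all groups in one fit (0.45 ± 0.18, adjusted p = 0.156, edgeR).

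Length ran with enrichment too. In low nuclease FMR1 KO 19 of 23 members under 450 nt were called lower (48.05% of all genes of these lengths; median log2 −0.82 beside −0.65), 23 of 27 of 450 to under 700 nt (31.7%; −0.63 beside −0.42), and 10 of 28 of 700 nt or more, with 1 higher (12.97% of all genes of 700 to 1326 nt lower; −0.37 beside −0.20). The genes set beside the members lay within the members' range of lengths. Spearman's rho with log2 coding length was 0.72 across the members in that comparison (0.60 over 15373 genes), 0.39 in low nuclease WT (0.48 over all genes), 0.49 in standard FMR1 KO (0.58) and 0.31 in standard WT (0.42, and 0.36 for the members without fraction 5/6 replicate 3). Both subunits took part, with 16 of 51 large and 9 of 26 small subunit members lower in low nuclease WT, and 33 and 19 in FMR1 KO. Among other lists, the cytosolic ribosomal proteins (53 of 82 lower in WT, median −0.55; 60 of 82 in FMR1 KO, −0.69) and the respiratory chain (16 of 83, −0.54; 60 of 83, −0.80) lay below 0 as well. The mitochondrial tRNA synthetases lay above 0 (3 of 17 higher and 0 lower in WT, median 0.16; 2 and 0 in FMR1 KO, 0.15). All coding genes in the members' range of lengths had medians of −0.21 and −0.30, with 14.4% and 22.5% lower.

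Loss of FMRP was compared in each material. No member was called in the pellet, in fraction 5/6 or in RNA of the standard preparation, which does not show that the genotypes were equal. In the pellet 0 of 77 members passed the adjusted threshold by edgeR (0.015% of 13362 genes did), 0 had an unadjusted p under 0.05 (5.31% of genes), and DESeq2 gave 0. The members' median log2 ratio of FMR1 KO to WT was −0.03 beside 0.00 over all genes. The 3 with the lowest p were Mrps6, at 11.8, 12.2 and 11.2 scaled CPM in WT and 13.1, 14.9 and 12.8 in FMR1 KO (0.21 ± 0.10, adjusted p = 0.867), Mrps2 at 7.17, 7.21 and 6.41 against 5.63, 4.48 and 6.36 (−0.33 ± 0.16, adjusted p = 0.867), and Mrpl1 at 8.07, 8.75 and 7.54 against 7.18, 6.78 and 7.02 (−0.22 ± 0.10, adjusted p = 0.868). The libraries of each did not overlap between genotypes, which held for 5.13% of all genes above and 6% below. In low nuclease pellets the ratios of Mrps6, Mrps2 and Mrpl1 were −0.24, −0.11 and 0.16, so that only Mrps2 of these 3 kept its direction.

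In fraction 5/6 0 of 77 members were called (0% of 13068 genes), 5 had an unadjusted p under 0.05 (4.51%) and the median was 0.13 beside −0.03, with 16 members below 0. Without the library labelled WT replicate 3 the median was 0.02 with 34 below 0, and Mrpl1, Mrpl40 and Mrpl12 gave 0.42, 0.33 and −2.22. Mrpl1 lay at 7.52, 7.34 and 7.76 scaled CPM in WT and 10.0, 9.43 and 10.4 in FMR1 KO (0.40 ± 0.13, adjusted p = 0.826, edgeR), and at −0.23 with low nuclease. Mrpl40 lay at 9.94, 8.18 and 6.57 against 11.4, 10.6 and 12.3 (0.47 ± 0.19, adjusted p = 0.826). For Mrpl12 (−2.31 ± 0.77, adjusted p = 0.826) WT replicates 2 and 3, at 72.5 and 46.5, stood apart from WT replicate 1 at 6.66 and the FMR1 KO libraries at 8.81, 7.08 and 9.50, and without WT replicate 1 it was called lower (adjusted p = 0.0465). In low nuclease fraction 5/6 0 of 78 were called (0.0445% of genes), 11 had an unadjusted p under 0.05 (8.54%), the median was 0.15 beside 0.00 and 15 members were below 0, and for 22 members the FMR1 KO libraries lay above all WT libraries, against 8.46% of all genes. The lowest p was that of Mrpl53, a mitochondrial-only large subunit protein, at 15.2, 9.87 and 11.7 scaled CPM in WT and 29.2, 20.8 and 25.3 in FMR1 KO (1.04 ± 0.20, adjusted p = 0.57, edgeR), and 695 of its 790 exonic nt lie also in Gm42688 on the same strand. Mrpl10 (0.28) and Mrps12 (0.37) were next.

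In RNA 0 of 78 members were called (0.0736% of 16314 genes) and 0 had an unadjusted p under 0.05 (2.59%). Mrpl40 was nearest, at 21.6, 23.3 and 21.6 scaled CPM in WT and 24.2, 27.8 and 24.3 in FMR1 KO (0.20 ± 0.10, adjusted p = 0.999, edgeR). Mrps5 (0.14 ± 0.10) and Mrpl39 (0.13 ± 0.10) followed. The change of occupancy with genotype gave 0 calls of 78 (0.0673% of 16352 genes), 1 member with an unadjusted p under 0.05 (6.16% of genes), Mrps2 (−0.44 ± 0.16, adjusted p = 0.744), and a median of −0.04. Mrpl12 (2.09 ± 1.04, which turned to −0.04 without FMR1 KO pellet replicate 2) and Mrps5 (−0.23 ± 0.13) were next. The change of enrichment gave 0 calls of 77 (0% of 13670 genes) and 6 with an unadjusted p under 0.05 (5.63%), with 61 members below 0 and a median of −0.18 beside 0.03. Without the library labelled WT fraction 5/6 replicate 3 there were 55 below 0 with a median of −0.09 beside −0.04, and without WT pellet replicate 2 there were 44 (−0.04), while the other fits that left out 1 library gave 53 to 68. Scaled by library sizes alone, 75 were below 0, with a median of −0.99 beside −0.71 over all genes. Its lowest p was that of Mrpl1 (−0.62 ± 0.13, adjusted p = 0.726, edgeR), followed by Mrpl12 (4.39 ± 1.40) and Mrps2 (−0.61 ± 0.21), and without WT fraction 5/6 replicate 3 the 3 gave −0.67, 4.26 and −0.58. In the low nuclease preparation Mrpl1 lay at 0.35. With low nuclease 0 members were called in the pellet (0.0197% of genes), RNA (0%), change of occupancy (0.0187%) and change of enrichment (0.0126%), with 1, 1, 1 and 7 members at an unadjusted p under 0.05 (4.34%, 2.18%, 2.63% and 8.37% of genes). In that change of enrichment 65 of 78 members were below 0, with a median of −0.16 beside −0.07, and Mrps33 (−0.79), Mrpl43 (−0.63) and Mrps12 (−0.53) had the lowest p. In low nuclease pellets these were Mrpl53 (0.55), Mrpl1 (0.16) and Mrpl33 (−0.51). In RNA and in the change of occupancy, which use the dominated RNA libraries, they were Mrpl39 (1.18 and −1.02), Mrps30 (−0.80 and 0.82) and Mrpl42 (0.94 and −1.02).

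**Figure D4:**
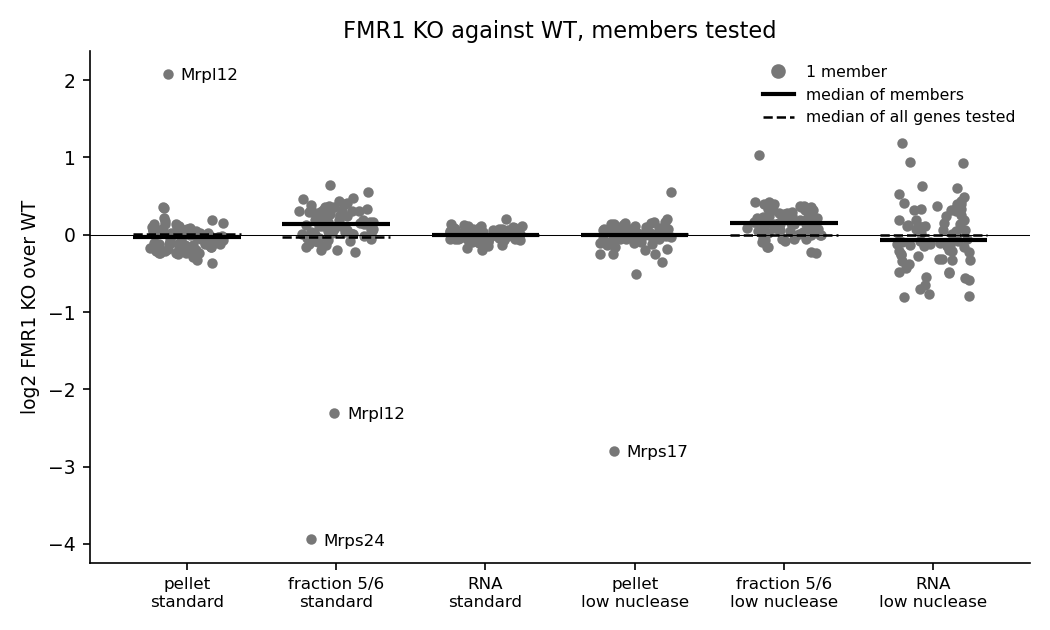
Log2 ratio of FMR1 KO to WT for each member (points) in pellet RPFs, fraction 5/6 RPFs and RNA of both preparations, with medians of the members and of all genes. No member was called in any of the 6 comparisons, and the standard medians lie at −0.03 in the pellet, 0.13 in fraction 5/6 and −0.01 in RNA.

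The standard preparation was set against low nuclease within each material. In WT pellets 13 members were higher and 2 lower with the standard preparation (15% and 23.8% of all genes), with a median log2 ratio of 0.20 beside −0.05, and in FMR1 KO pellets also 13 and 2 (7.35% and 9.36%), with 0.18 beside −0.02. Among the 13, Mrps33, Mrpl35, Mrps31, Mrps30, Mrpl24, Mrpl2, Mrps22, Mrpl19 and Mrps9 were higher in both genotypes. Mrps31 lay at 19.6, 20.1 and 16.96 scaled CPM in standard WT pellets and 11.5, 12.5 and 11.3 in low nuclease ones (1.61-fold higher, adjusted p = 0.00709, edgeR), and at 17.8, 18.8 and 19.6 against 11.55, 11.09 and 10.6 in FMR1 KO (1.69-fold higher, adjusted p = 0.00797). Both lower members were the same in the 2 genotypes, Mrps24 (log2 −0.89 and −0.61) and Mrpl48 (−0.45 and −0.62). Mrpl48 lay at 36.8, 45.6 and 40.3 in standard and 56.96, 53.7 and 57.5 in low nuclease WT pellets, and at 29.6, 32.4 and 30.2 against 46.8, 45.8 and 49.1 in FMR1 KO. The libraries of these 3 genes did not overlap between preparations in either genotype.

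In fraction 5/6 fewer members moved with the preparation in WT, 2 higher and 0 lower (3.23% and 5.96% of all genes), namely Mrps30 (21.7, 21.3 and 23.05 against 12.1, 13.6 and 12.2 scaled CPM, adjusted p = 0.0214, edgeR) and Mrps27 (22.1, 23.1 and 28.5 against 15.4, 16.7 and 14.8, adjusted p = 0.0459). In FMR1 KO 9 were higher and 1, Mrpl43, lower (9.98% and 10.8%), among them Mrps30, Mrpl35, Mrps31 and Mrps22. These counts hung on the libraries used: without standard WT pellet replicates 1, 2 and 3 they were 8, 10 and 27, without low nuclease ones 5, 9 and 5; in FMR1 KO pellets 1, 7 and 7, and 14, 1 and 1; in WT fraction 5/6 1, 0 and 6, and 0, 0 and 0; in FMR1 KO fraction 5/6 2, 0 and 14, and 11, 2 and 0. With library sizes alone no member was higher, and 76, 74, 76 and 49 were lower in the 4 comparisons. These sizes include Cdk8, which took a far larger share of standard than of low nuclease RPF libraries, and this scaling lowers every gene of the standard preparation. Those counts are therefore not read as a result about the members.

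Peak intervals, stretches of a transcript where RPFs pile up, were deposited for the 12 standard RPF libraries, with heights not scaled between libraries. Mitoribosomal genes carried 1469 of them, 1452 in coding sequence (98.8%), 12 in 5′ and 5 in 3′ untranslated parts. Depending on the library 29.5–71.8% of members had an interval, against 12.7–25.7% of all transcripts in the table, and the median height was 12 to 16 beside 14 to 16 over all. Members with an interval whose middle recurred within 6 nt in all 3 WT pellet libraries were 5: Mrpl39 near codon 96, Mrpl50 near codon 5, Mrps33 near codon 58, Mrps7 near codon 229 and Mrpl37 ahead of its start codon (6.41% of members, 5.75% of all transcripts). In FMR1 KO pellets there were also 5, Mrpl19, Mrpl39, Mrpl45, Mrps15 and Mrps33 (5.06% of all transcripts), in WT fraction 5/6 1, Mrps15 (3.46%; 7 members and 8.34% of transcripts where only replicates 1 and 2 had to match), and in FMR1 KO fraction 5/6 3, Mrpl39, Mrpl41 and Mrps15 (3.82%). These shares are near those of transcripts in general. Mrps33 recurred in both genotypes, near codons 58 and 57.

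Intervals differ in width, and counting shared nucleotides instead, 9 members had at least 1 nucleotide covered in all 6 pellet libraries (6.88% of all transcripts did): Mrpl9, Mrpl19, Mrpl34, Mrpl39, Mrpl41, Mrpl44, Mrpl45, Mrps6 and Mrps33. In 2 of them nucleotides were covered in all 12 libraries of both genotypes and both materials (2.53% of all transcripts), namely the whole stretch of 11 nt in Mrpl41 and 10 of the 24 nt in Mrpl34. Without WT fraction 5/6 replicate 3 this held for 3 members, these 2 and Mrpl39 (2.91% of all transcripts). The stretches are shown with whole codons around them, coding strand, GRCm38, capitals marking the nucleotides covered in every library of the set. Mrpl34 is read from chr8:71465344-71465367 (plus strand), with codons 56 to 59 of 92 in the shared stretch and heights of 11 to 36. Mrpl41, a mitochondrial-only large subunit protein, is read from chr2:24974317-24974340 (minus strand), codons 109 to 112 of 135, heights 23 to 53. Mrps33, shared by the 6 pellet libraries, is read from chr6:39805394-39805432 (minus strand), codons 54 to 62 of 106, heights 4 to 30, and all 25 shared nucleotides lie within the 59 coding bases of Mrps33 that have windows without a copy.
Mrpl34: cagccgAGCAACATCAagcgcaag
Mrpl41: tttgatgCTAACAACCTGgagaaa
Mrps33: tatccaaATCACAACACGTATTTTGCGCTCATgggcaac

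In copied members the middles of the coding peak intervals fell almost wholly on copy-free bases. In the 12 members with 50% or more copied windows, 93 of 96 middles (96.9%) did so, while such bases made up 55.7% of their coding sequence. In the 24 members at or above 10% 248 of 253 did (98.0%, against 72.3% of bases). Intervals were summed over 12 libraries, so the same peak can count once in each and they are not independent. Only 8 of the 12 and 16 of the 24 members had an interval, while the shares of bases take in all of them. Mrpl41 gave 32 of the 96 and Mrpl45 81 of the 253. Whether the placing of reads sets these intervals was not tested.

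**Figure D5:**
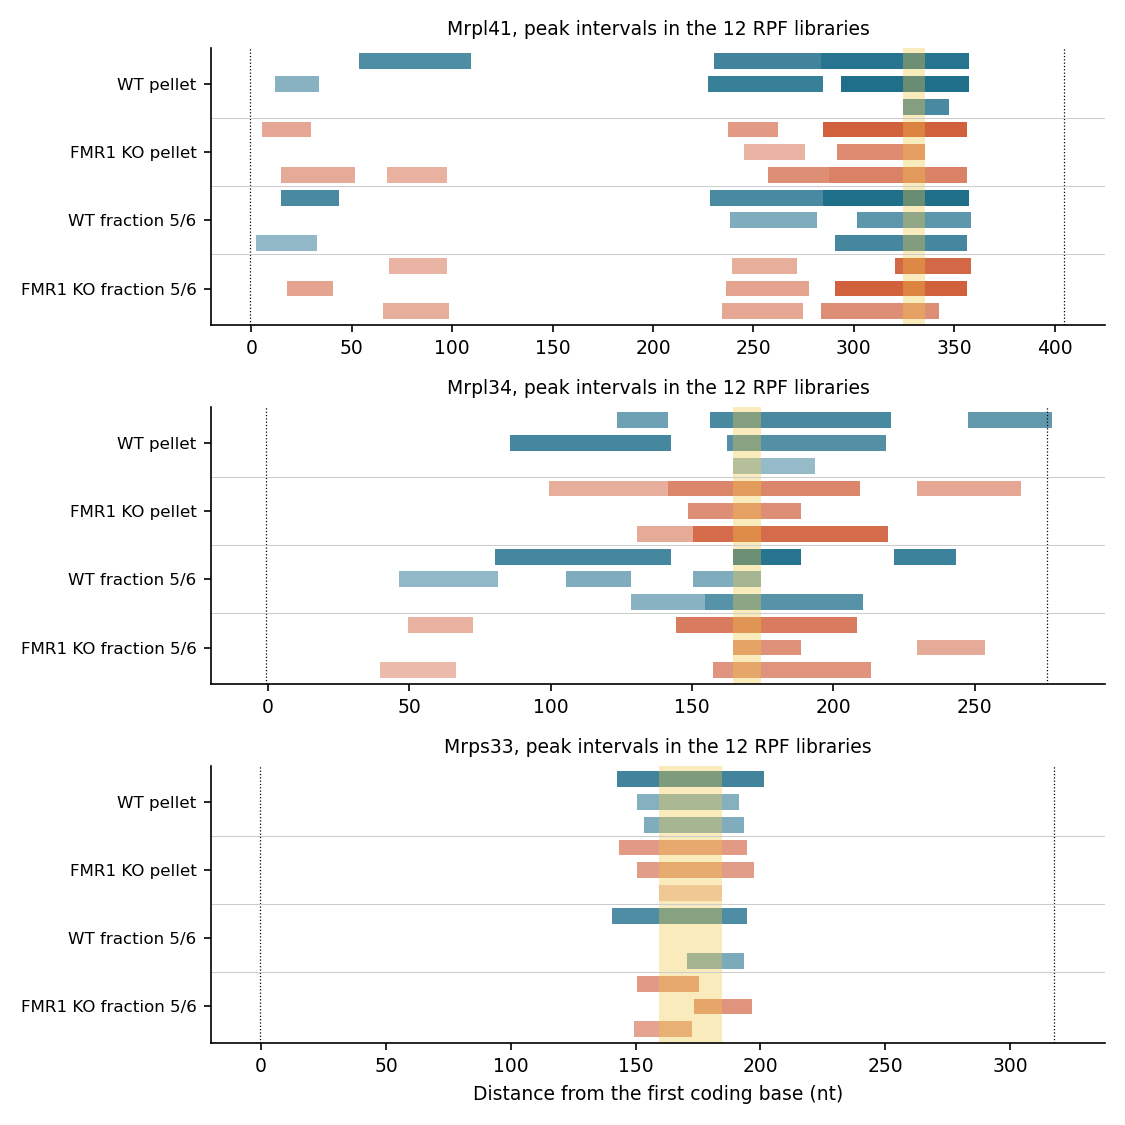
Deposited peak intervals of Mrpl41, Mrpl34 and Mrps33 in 12 standard RPF libraries (rows, blue for WT and orange for FMR1 KO, darker for higher intervals), along the distance in nt from the first coding base, with dotted lines at the ends of the coding sequence and yellow over the nucleotides shared by all 12 libraries (Mrpl41, Mrpl34) or by the 6 pellet libraries (Mrps33). Each pellet row has an interval over the yellow stretch in all 3 genes.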

How the data were processed

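The authors trimmed reads with cutadapt 2.10, removed ribosomal and non-coding RNA with Bowtie2 2.3.5, aligned with STAR 2.7.8a to GRCm38, marked duplicates with Picard, took them out with SAMtools 1.19.2 and used featureCounts 2.2.0 for the per-gene totals, so the deposited values are raw counts. Strand handling, the counted feature and reads with several places are not given in the sources used here. The authors also deposited peak intervals with heights as signal, for the standard RPF libraries. All 36 sample columns of the count table were used.

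From the counts, edgeR 4.0.16 in R 4.3.3 (limma 3.58.1) was run on protein-coding genes with filterByExpr, TMM scaling and the quasi-likelihood test, only the compared groups in each fit, Benjamini-Hochberg adjustment over all genes tested and a threshold of 0.05. DESeq2 1.42.0 was an alternative. Coding lengths and biotypes came from GENCODE M21, which is another release than the one the study used. Scripts were tested on simulated data with known changes. Peaks were matched within 6 nt. Genes named in full were the 5 highest and 5 lowest by WT occupancy and by WT pellet level per coding kb, in each genotype comparison the called members or else the 3 with the lowest p, members removed by the filter, and members with peaks in all 3 WT pellets, and other members named were chosen after their values were seen. The members and gene lists were chosen with earlier results of these data known.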

Additional observations from a re-analysis of the deposited data

How the results depend on the processing

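With library sizes alone, in place of TMM, 74 members were called for WT fraction 5/6 against RNA, 2 in WT enrichment, 0 in FMR1 KO enrichment, 1 for genotype in fraction 5/6, 76, 74, 76 and 49 for preparation in WT pellet, FMR1 KO pellet, WT fraction 5/6 and FMR1 KO fraction 5/6, 1 and 0 for low nuclease WT and FMR1 KO occupancy, and 0 and 0 for low nuclease fraction 5/6 against RNA. These library sizes include Cdk8. Counts in this section are of members alone, without the share over all genes, so they do not set the members apart. The WT occupancy ratios that library sizes turned below 0 were Mrps9 −0.75, Mrps27 −0.56, Mrps31 −0.38, Mrpl16 −0.23 and Mrps22 −0.075, and Mrps6 turned to −0.12 for genotype in the pellet. The low nuclease preparation gave 33 (WT occupancy), 21 (FMR1 KO occupancy), 33 (FMR1 KO fraction 5/6 against RNA), 25 (WT enrichment) and 53 (FMR1 KO enrichment) calls. There Mrpl30 lay at 0.16 in WT occupancy, Mrps6 and Mrpl1 at −0.24 and 0.16 for genotype in the pellet, Mrpl1, Mrpl12 and Mrpl40 at −0.23, 0.23 and −0.00012 for genotype in fraction 5/6, and Mrpl1 and Mrpl12 at 0.35 and −0.26 for the change of enrichment. DESeq2 called 1 member in WT enrichment and, for preparation, 27 in WT pellet, 12 in WT fraction 5/6 and 19 in FMR1 KO fraction 5/6. Replicate numbers were shared between groups, but in 0 of 22 comparisons did the deviations of all 3 same-numbered pairs correlate above 0.1. In 2, WT enrichment and WT fraction 5/6 against RNA of the low nuclease preparation, each same-numbered pair exceeded every other pair, a hint from the data and not from the design. With the number as a replicate block 1 call was left in FMR1 KO enrichment, 1 in FMR1 KO pellet preparation, 0 in both fraction 5/6 preparation comparisons, and 42 in low nuclease WT enrichment. All groups in one fit gave 24 and 10 for WT pellet and fraction 5/6 preparation, and 2 and 6 for low nuclease WT and FMR1 KO enrichment. Leaving Cdk8 out, or no filter, gave 1 for WT fraction 5/6 preparation. Recurrent peaks in WT pellet, FMR1 KO pellet, WT fraction 5/6 and FMR1 KO fraction 5/6 were found in 0, 0, 0 and 0 members at 0 nt, 11, 12, 5 and 7 within 12 nt, 2, 0, 0 and 1 above the median height, and 21, 18, 11 and 12 by shared nucleotides. The matching shares of all transcripts are not given here, so these numbers show the effect of the setting and no trait of the members. The cause was not tested.

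Leaving out single libraries gave 44–51 calls in WT and 52–58 in FMR1 KO occupancy, 35–55 and 50–59 for fraction 5/6 against RNA, 0–0 in WT and 0–6 in FMR1 KO enrichment, 0–1 for genotype in fraction 5/6 and 0–0 in the other genotype comparisons, 5–27, 1–14, 0–6 and 0–14 for the 4 preparation comparisons, 1–12 and 0–46 for low nuclease WT and FMR1 KO enrichment, and 41 for low nuclease WT occupancy without WT RNA replicate 2. Without FMR1 KO RNA replicates 2 and 3 together, low nuclease FMR1 KO occupancy gave 31. For Mrpl12 the change of occupancy ranged from −0.040 without FMR1 KO pellet replicate 2 to 2.48 without replicate 3. Of 544 values of named members under an alternative, 462 kept direction and side of the threshold. The settings for the low nuclease comparisons and the peak matches by shared nucleotides or without WT fraction 5/6 replicate 3 were chosen after seeing the data. Depth limits most the members with few RPF counts, such as Mrps36, and Fmr1-discordant WT fraction 5/6 replicate 3 limits every WT result of that fraction.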

Other observations

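The mRNAs that mitochondrial ribosomes themselves translate had few counts in the RPFs. The count table lists 12 mRNAs of the mitochondrial genome. For 7 of them (mt-Nd1, mt-Nd2, mt-Co1, mt-Nd4, mt-Nd5, mt-Nd6 and mt-Cytb) standard RNA libraries held 5900 to 154569 counts, standard RPF libraries 0 to 14 and low nuclease RPF libraries 7 to 380. The mRNA mt-Co1, for a subunit of cytochrome oxidase, had 4, 10 and 4 counts in the 3 standard WT pellets, 0, 13 and 4 in the FMR1 KO pellets, and 60052, 45576 and 40058 in WT RNA. With low nuclease it had 95, 380 and 200 counts in WT pellets. The other 5 (mt-Co2, mt-Atp8, mt-Atp6, mt-Co3 and mt-Nd4l) had 0 counts in all 24 RPF libraries but also only 3 to 903 in standard RNA, and whether their reads could be counted at all was not tested. How mitochondria were distributed over the gradients was not measured here.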
